A study of Mus musculus with 6 samples.

Results

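The 31 interferon-stimulated genes described here are a fixed list of transcripts that cells make in large amounts after exposure to interferon. The members were taken by gene name. All 31 were found among the 35498 genes to which reads were summed, and all 31 were among the 14237 genes with enough reads to test. Infarcted mouse hearts of 2 groups were compared, Runx1_FB_KO (n = 3) and CTL (n = 3). Both groups were C57BL/6J mice aged 8 to 10 weeks, collected 7 days after surgery in which the left anterior descending artery was tied, and both were fed tamoxifen throughout. Both also carried 1 copy of Postn CreER, a tamoxifen-activated recombinase that acts in cells that express periostin, chiefly activated fibroblasts. The Runx1_FB_KO genotype was Postn CreER+/-; Runx1 fl, and the CTL genotype was Postn CreER+/-; Runx1 WT. Runx1_FB_KO replicates 1, 2 and 3 were labelled male, female and female, and CTL replicates 1, 2 and 3 female, male and male. Cells that do not express periostin keep Runx1, and the polyadenylated RNA came from whole ventricle below the ligature. Fewer cells of a type and less RNA per cell cannot be told apart in such tissue. The labels do not say whether each library came from 1 mouse, so p-values measure the spread between these libraries.

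Interferons alpha and beta bind a receptor made of IFNAR1 and IFNAR2, whose kinases JAK1 and TYK2 phosphorylate STAT proteins. Phosphorylated STAT2 and IRF9 are parts of the complex ISGF3, which binds the interferon-stimulated response element (ISRE) in the promoters of responsive genes. Interferon gamma uses another receptor and acts mainly through gamma-activated sites (GAS). In the infarcted heart, nucleic acids from dying cells are a known trigger of this pathway in macrophages, fibroblasts and endothelium. The products restrict viruses, sense foreign or misplaced nucleic acid, attach the ubiquitin-like protein ISG15 to other proteins, or feed back on the signal.

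The promoters of 22 of the 31 genes were matched by symbol in the RefSeq table for GRCm38.p6, each as the 250 bases before and the 50 bases after an annotated start. The 9 members not matched were Mx1, Mx2, Oas2, Dhx58, Zbp1, Usp18, Ifi27, Rtp4 and Parp14. The ISRE core, GAAA then any 2 bases then GAAA, was searched on both strands, where overlapping matches count separately. It was present in 10 of the 22 genes (45.5%), against 3.99% of all 27025 genes searched and 3.92% of the 10848 tested genes among them. The GAS core TTCNNNGAA was present in 5 of the 22 (22.7%), against 9.55% of all genes searched and 8.31% of the tested genes. The core TGTGGT bound by RUNX factors was present in 3 of the 22 (13.6%), namely Oasl2, Cmpk2 and Stat2. Its share was 18.9% of all genes searched and 15.2% of the tested genes. A match describes these letters and is not a measured binding site. The promoters below are shown because these 6 genes share the ISRE core yet differed in how their reads were spread over the libraries. Each reads 5′ to 3′ on the strand of the gene, with the bases of every ISRE core match in capitals.
Isg15 (chr4:156200769-156201068, minus strand): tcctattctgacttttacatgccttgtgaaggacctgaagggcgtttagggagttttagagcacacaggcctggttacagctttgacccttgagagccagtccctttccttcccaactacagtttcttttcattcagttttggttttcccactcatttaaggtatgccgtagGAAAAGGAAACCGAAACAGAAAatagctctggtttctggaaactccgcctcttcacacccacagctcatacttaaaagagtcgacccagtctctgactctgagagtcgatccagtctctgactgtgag
Bst2 (chr8:71537423-71537722, minus strand): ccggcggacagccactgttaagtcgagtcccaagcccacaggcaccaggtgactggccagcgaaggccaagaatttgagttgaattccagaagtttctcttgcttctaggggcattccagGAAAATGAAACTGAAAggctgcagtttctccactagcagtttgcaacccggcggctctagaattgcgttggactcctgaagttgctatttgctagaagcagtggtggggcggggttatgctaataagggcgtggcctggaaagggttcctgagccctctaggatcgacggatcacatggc
Oas1a (chr5:120907476-120907775, minus strand): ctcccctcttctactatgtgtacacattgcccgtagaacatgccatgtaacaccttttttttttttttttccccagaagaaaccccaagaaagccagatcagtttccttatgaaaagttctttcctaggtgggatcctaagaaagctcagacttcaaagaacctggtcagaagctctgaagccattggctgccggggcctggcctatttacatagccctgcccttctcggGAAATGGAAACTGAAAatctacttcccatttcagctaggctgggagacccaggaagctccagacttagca
Ifit1 (chr19:34640639-34640938, plus strand): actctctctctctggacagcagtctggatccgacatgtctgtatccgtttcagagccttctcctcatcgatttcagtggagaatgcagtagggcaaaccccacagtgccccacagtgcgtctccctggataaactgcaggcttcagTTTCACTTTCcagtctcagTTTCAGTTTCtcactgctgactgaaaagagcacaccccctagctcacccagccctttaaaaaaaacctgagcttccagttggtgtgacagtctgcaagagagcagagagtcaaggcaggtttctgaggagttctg
Ifit3 (chr19:34583279-34583578, plus strand): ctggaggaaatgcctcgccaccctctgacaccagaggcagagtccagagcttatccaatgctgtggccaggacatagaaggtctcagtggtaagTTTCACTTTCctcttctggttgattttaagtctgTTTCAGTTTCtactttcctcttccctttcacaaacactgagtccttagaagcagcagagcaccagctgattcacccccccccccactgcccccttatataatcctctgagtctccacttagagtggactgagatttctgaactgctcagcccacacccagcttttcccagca
Rsad2 (chr12:26456403-26456702, minus strand): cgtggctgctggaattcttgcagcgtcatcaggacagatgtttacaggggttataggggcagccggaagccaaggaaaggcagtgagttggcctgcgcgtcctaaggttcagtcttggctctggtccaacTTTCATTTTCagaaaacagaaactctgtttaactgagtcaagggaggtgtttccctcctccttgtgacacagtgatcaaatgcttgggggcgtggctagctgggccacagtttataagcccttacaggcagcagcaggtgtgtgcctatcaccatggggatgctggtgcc
The Isg15 window held 3 overlapping matches, and the other windows shown held 2, except that of Rsad2 with 1. In Ifit1, Ifit3 and Rsad2 the core lay on the opposite strand, where it reads TTTC, any 2 bases, TTTC.

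Libraries held 16598561 to 19987279 estimated reads. Each member had between 33 and 1528 reads in the Runx1_FB_KO libraries and between 70 and 1671 in the CTL libraries. Values per library are given below as CPM, read counts relative to the library total scaled by TMM, which corrects for a few abundant genes taking up a large part of a library. Fold changes are Runx1_FB_KO over CTL on the log2 scale, with a negative value meaning lower in Runx1_FB_KO. Runx1 itself was at 17.5, 10.9 and 67.4 CPM in Runx1_FB_KO replicates 1, 2 and 3, against 96.4, 86.9 and 85.5 CPM in CTL. Runx1_FB_KO replicate 3 thus had far more Runx1 RNA than replicates 1 and 2, and results are given with and without that library. Less deletion of Runx1 and more cells that express it cannot be told apart in these values. The 8 cardiomyocyte markers scored 2.73, 3.12 and 1.23 in Runx1_FB_KO, against 0.04, 0.15 and -0.19 in CTL, as mean log2 CPM relative to the CTL mean. The 10 macrophage markers scored -1.41, -1.47 and -0.24 in Runx1_FB_KO, against 0.33, -0.25 and -0.08 in CTL. Mitochondrially encoded genes took 24.5%, 19.6% and 10.4% of reads in Runx1_FB_KO, against 5.69%, 7.11% and 5.36% in CTL. The part of these shifts in the results below was not tested.

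As a group the interferon-stimulated genes lay slightly lower in Runx1_FB_KO, with no member past the threshold when all 6 libraries were tested. The fold change was negative for 26 of the 31 members (83.9%), where 54% of all genes tested were negative. The median over the 31 was -0.32 on the log2 scale, beside -0.06 over all genes tested. By edgeR's quasi-likelihood test, 0 members had an adjusted p under 0.05, as did 0% of all genes in either direction. At an unadjusted p under 0.05, 5 members (16.1%) were lower and 0 were higher, beside 13.1% of all genes lower and 19.3% higher. These 5 were Mx1, Bst2, Zbp1, Irf1 and Stat2. All 3 Runx1_FB_KO values lay below all 3 CTL values for 8 members (25.8%), beside 18.8% of all genes, and in the opposite direction for 0 members, beside 20.2%. With DESeq2, which called 5.85% of all genes lower and 15.4% higher, Mx1 was lower (adjusted p = 0.0185) and the other 30 members had adjusted p of 0.0626 or more.

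**Figure D1:**
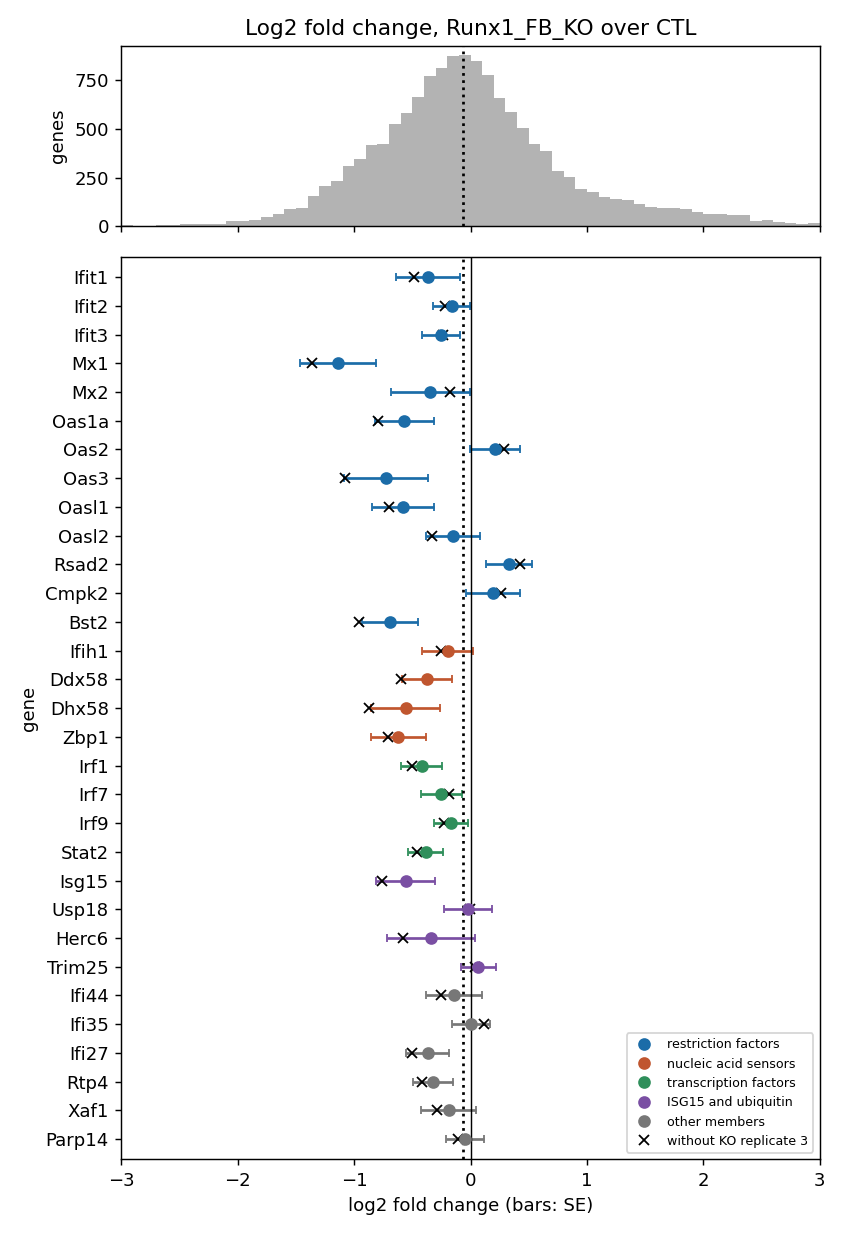
Log2 fold change of each interferon-stimulated gene, Runx1_FB_KO over CTL (dots, bars are standard errors from edgeR, colours are roles), with the value without Runx1_FB_KO replicate 3 as a cross. The upper panel counts all genes tested with fold changes between -3 and 3, and the dotted line is their median of -0.06. Members ran between -1.14 for Mx1 and 0.33 for Rsad2 (-0.15 with library size alone).

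The separation of the groups depended on which Runx1_FB_KO library was considered. The mean log2 CPM of the 31 members relative to the CTL mean was -0.34, -0.51 and -0.07 in Runx1_FB_KO replicates 1, 2 and 3, against -0.02, 0.06 and -0.04 in CTL replicates 1, 2 and 3. Replicate 3 was the highest of the Runx1_FB_KO libraries for 24 members (77.4%, beside 42.9% of all genes) and lay within the CTL range for 19 (61.3%, beside 44% of all genes). Replicate 2 was the lowest of the Runx1_FB_KO libraries for 22 members (71%, beside 33% of all genes). Replicates 1 and 2 both lay below every CTL library for 16 members, or 51.6%, beside 36.6% of all genes. Without replicate 3, 12 of the 31 members (38.7%) were lower by edgeR and 0 were higher, where 22.5% of all genes were called lower and 25.1% higher. The 12 were Mx1, Oas1a, Oas3, Bst2, Ddx58, Dhx58, Zbp1, Irf1, Stat2, Isg15, Ifi27 and Rtp4, with log2 fold changes between -1.36 and -0.42. That comparison rests on 2 knockout libraries.

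**Figure D2:**
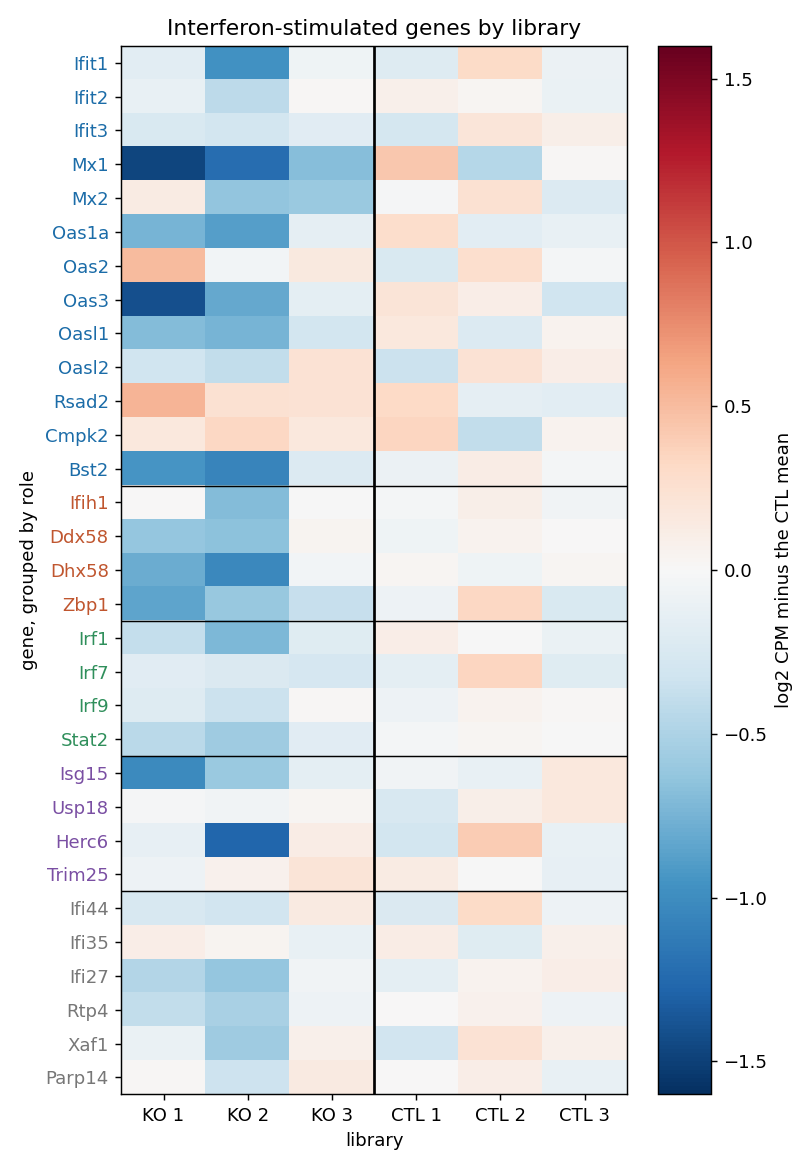
Log2 CPM of the 31 interferon-stimulated genes in each library, minus the mean of the 3 CTL libraries. Rows are grouped by role (restriction factors, nucleic acid sensors, transcription factors, ISG15 and ubiquitin genes, other members). Blue is lower and red higher than the CTL mean. The blue cells gather in Runx1_FB_KO replicates 1 and 2, and with this TMM scaling Rsad2 and Cmpk2 are red in all 3 Runx1_FB_KO libraries, although their fold changes are -0.15 and -0.28 with library size alone.

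Among the 13 genes whose products restrict viruses, Mx1 and Bst2 had the clearest separation. Mx1 encodes a dynamin-like GTPase, and C57BL/6 mice carry a deletion in it that removes the protein. Mx1 (GRCm38 chromosome 16, 97447035 to 97462907, minus strand) was at 4.06, 4.84 and 7.10 CPM in Runx1_FB_KO replicates 1, 2 and 3, against 15.4, 8.30 and 11.6 CPM in CTL. Every Runx1_FB_KO value lay below every CTL value, although the CTL libraries themselves differed by 1.86-fold between highest and lowest. The log2 fold change was -1.14 (SE 0.33, with an adjusted p of 0.0871 by edgeR), and -1.36 without Runx1_FB_KO replicate 3 (edgeR adjusted p = 0.0101). The Mx1 transcript ENSMUST00000155233.7, annotated as a target of nonsense-mediated decay, was given 48.0, 56.4 and 54.7 reads in Runx1_FB_KO and 305.7, 167.6 and 182.2 in CTL. It held most Mx1 reads in every library except Runx1_FB_KO replicate 3, where the coding transcript ENSMUST00000113768.7 was given 84.3. Mx1 lies 4.62 Mb from Runx1 on the same chromosome, and its neighbour Mx2 lies 4.71 Mb from Runx1. Mx2, an annotated polymorphic pseudogene in this strain, was at 4.45, 2.58 and 2.66 CPM in Runx1_FB_KO, against 4.002, 4.82 and 3.48 CPM in CTL, and the groups overlapped.

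Bst2 encodes tetherin, a membrane protein that holds budding virions at the cell surface. Bst2 was at 35.5, 32.9 and 58.6 CPM in Runx1_FB_KO, against 64.3, 74.3 and 67.2 CPM in CTL. Its log2 fold change was -0.70 (SE 0.24, with an adjusted p of 0.113 by edgeR), and -0.96 without Runx1_FB_KO replicate 3 (edgeR adjusted p = 0.000889). It was the most abundant member per transcript length in CTL, at 215 ± 15.3 TPM, and was at 88.1 ± 60.4 TPM in Runx1_FB_KO (SD, n = 3 each). TPM are the authors' length-scaled values and carry no TMM scaling, and are used here for levels between genes. With library size alone the log2 fold change of Bst2 was -1.09.

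The IFIT proteins bind viral RNA that lacks the host cap modification, and their genes sit side by side on chromosome 19. Ifit1 was at 20.03, 11.5 and 21.3 CPM in Runx1_FB_KO, against 19.5, 27.8 and 20.98 CPM in CTL. The value of replicate 2 lay well below the other 5 libraries and that of CTL replicate 2 above them. Ifit2 and Ifit3 had log2 fold changes of -0.16 and -0.25, and the Ifit1 value was -0.37 (SE 0.27, with an adjusted p of 0.359 by edgeR). Without Runx1_FB_KO replicate 2 the Ifit1 value was -0.13, and without CTL replicate 2 it was -0.20. Ifit3b, a near copy of Ifit3 between which reads are hard to divide, was at 9.10, 6.71 and 8.17 CPM in Runx1_FB_KO, against 9.52, 14.3 and 8.60 CPM in CTL.

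The oligoadenylate synthetase genes differed unequally. OAS enzymes make 2′-5′ oligoadenylates that activate RNase L, and the OAS-like protein OASL1 restrains translation of IRF7 in mice. Oas1a, Oas3 and Oasl1 had log2 fold changes of -0.57, -0.73 and -0.58, while Oasl2 had -0.15 and Oas2 had 0.21, or -0.26 with library size alone. Oas3 was at 3.40, 5.15 and 8.27 CPM in Runx1_FB_KO, against 10.7, 9.91 and 7.36 CPM in CTL, so that Runx1_FB_KO replicate 3 exceeded CTL replicate 3. Oas2, which adjoins Oas3 on chromosome 5, was at 26.7, 18.3 and 20.9 CPM in Runx1_FB_KO, against 15.9, 22.7 and 18.4 CPM in CTL. Oasl2, the synthetase-family member with the most reads, was at 42.4, 40.1 and 61.7 CPM in Runx1_FB_KO, against 41.5, 62.0 and 56.8 CPM in CTL. In both of these genes CTL replicate 1 was the lowest CTL library and the groups overlapped. Oas1g, a close paralog of Oas1a, was at 3.67, 5.08 and 6.23 CPM in Runx1_FB_KO, against 5.91, 5.27 and 4.38 CPM in CTL, and reads between the pair are uncertain.

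Rsad2 and Cmpk2, singled out after their values were seen, had Runx1_FB_KO means above the CTL means with TMM scaling. Rsad2 encodes viperin and Cmpk2 a mitochondrial nucleotide kinase whose product supplies viperin's substrate. The genes stand head to head on chromosome 12. Rsad2 was at 30.97, 24.98 and 24.8 CPM in Runx1_FB_KO, against 26.5, 19.1 and 18.7 CPM in CTL. Cmpk2 was at 13.2, 14.8 and 13.1 CPM in Runx1_FB_KO, against 14.9, 8.88 and 12.1 CPM in CTL. CTL replicate 1 was the highest CTL library for both. It lay among the Runx1_FB_KO values for Rsad2 and just above all of them for Cmpk2. The log2 fold changes were 0.33 (SE 0.20, with an adjusted p of 0.268 by edgeR) and 0.19 (SE 0.23, with an adjusted p of 0.562 by edgeR), and both turned negative with library size alone, at -0.15 and -0.28. The Cmpk2 value was 0.02 without CTL replicate 2 and 0.38 without CTL replicate 1, and that of Rsad2 ran between 0.22 and 0.51 over the libraries left out. With that scaling the median of all genes tested was -0.52, beside -0.06 with TMM, and all 31 members were negative with a median of -0.74.

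**Figure D3:**
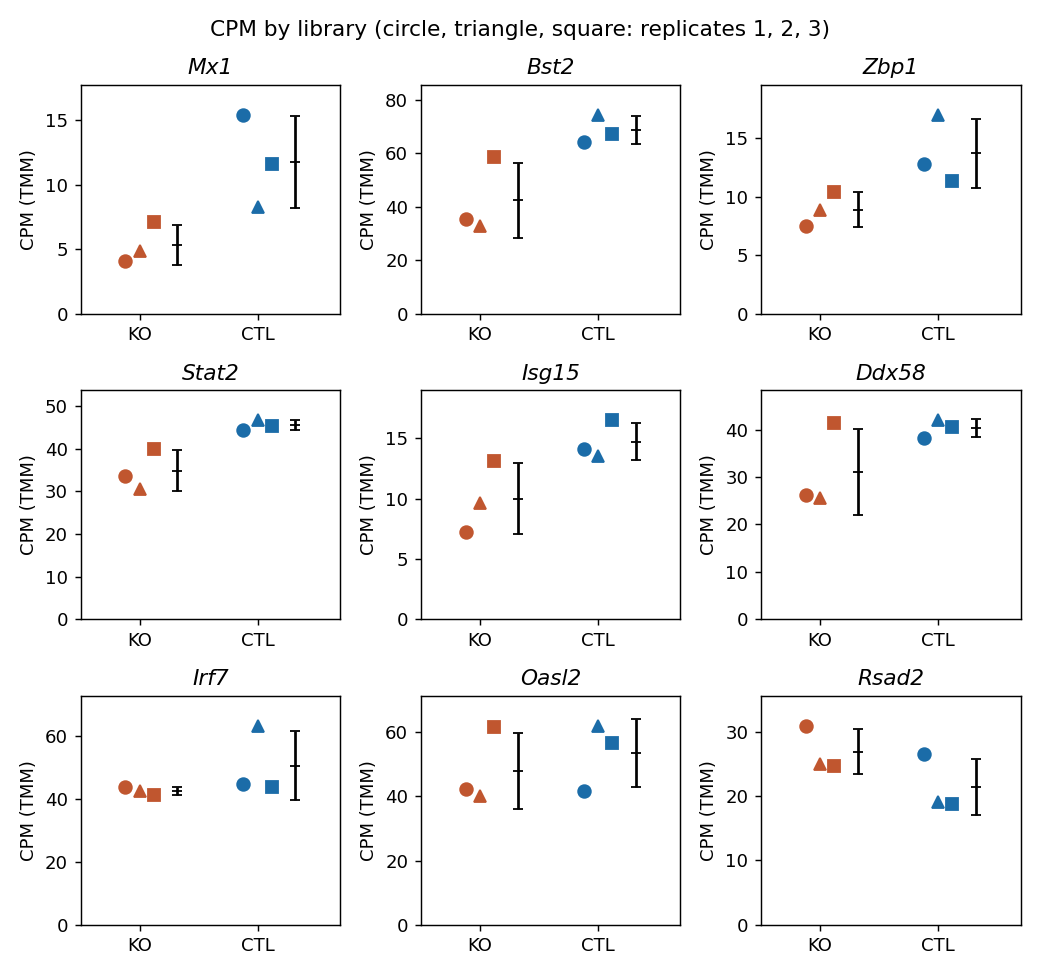
CPM (TMM-scaled, linear axis from 0) of 9 interferon-stimulated genes by library. Circles, triangles and squares are replicates 1, 2 and 3, with Runx1_FB_KO left of CTL, and black bars are the mean ± SD (n = 3). Mx1, Bst2, Zbp1, Stat2 and Isg15 do not overlap between groups, and Ddx58, Irf7, Oasl2 and Rsad2 do.

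The 4 nucleic acid sensors all had negative fold changes. Ddx58 encodes RIG-I and Ifih1 encodes MDA5, the cytosolic sensors of double-stranded RNA, and Dhx58 encodes LGP2, which modulates both. Ddx58 was at 26.2, 25.5 and 41.4 CPM in Runx1_FB_KO, against 38.3, 42.0 and 40.6 CPM in CTL. Dhx58 showed the same arrangement, at 5.63, 4.76 and 9.495 CPM in Runx1_FB_KO and 10.005, 9.375 and 10.04 CPM in CTL. In both genes replicate 3 of the knockout matched the CTL libraries, which were tightly grouped. Without it the log2 fold changes were -0.60 and -0.87 (edgeR adjusted p = 0.00534 and 0.0139), and with it -0.37 and -0.56 (edgeR adjusted p = 0.249 and 0.22). Ifih1 differed less, at -0.20 (SE 0.22), with Runx1_FB_KO replicate 2 alone clearly low at 14.8 CPM.

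Zbp1, a sensor of Z-form nucleic acid that can start necroptosis, was at 7.46, 8.82 and 10.4 CPM in Runx1_FB_KO, against 12.8, 17.01 and 11.4 CPM in CTL. The groups did not overlap, and CTL replicate 2 stood above the other CTL libraries. The log2 fold change was -0.62 (SE 0.24, with an adjusted p of 0.131 by edgeR), and -0.71 without Runx1_FB_KO replicate 3 (edgeR adjusted p = 0.0416).

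Of the 4 transcription factors, Stat2 and Irf1 separated the groups and Irf7 and Irf9 did not. STAT2 and IRF9 are subunits of ISGF3, IRF1 is an early factor of the gamma response, and IRF7 amplifies type I interferon production. Stat2 was at 33.7, 30.6 and 40.02 CPM in Runx1_FB_KO, against 44.4, 46.7 and 45.4 CPM in CTL, the narrowest CTL spread of all members. Its log2 fold change was -0.39 (SE 0.15, with an adjusted p of 0.133 by edgeR). Irf1 was at 26.7, 21.1 and 30.3 CPM in Runx1_FB_KO, against 37.4, 34.7 and 32.4 CPM in CTL, with a log2 fold change of -0.42 (SE 0.17, with an adjusted p of 0.15 by edgeR).

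Irf9 was at 35.3, 32.01 and 41.1 CPM in Runx1_FB_KO, against 38.5, 42.1 and 41.2 CPM in CTL, and replicate 3 again lay within the CTL range. Irf7 was at 43.9, 42.6 and 41.3 CPM in Runx1_FB_KO, against 44.8, 63.3 and 43.8 CPM in CTL. The Irf7 values agreed closely in all libraries except CTL replicate 2, and the log2 fold change was -0.25 (SE 0.18, with an adjusted p of 0.339 by edgeR). Reads of Irf9 were divided unevenly between 2 long coding transcripts. ENSMUST00000130697.7 was given 358.5, 176.6 and 338.9 reads in Runx1_FB_KO and 49.4, 187.7 and 464.9 in CTL, which is an estimate between transcripts that share most of their sequence.

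Isg15 and the enzymes around it were unequal. ISG15 is the ubiquitin-like modifier, USP18 removes it and also blocks the receptor, HERC6 is its main ligase in mice, and TRIM25 ubiquitinates RIG-I. Isg15 was at 7.20, 9.68 and 13.1 CPM in Runx1_FB_KO, against 14.1, 13.6 and 16.5 CPM in CTL. The groups did not overlap, and the log2 fold change was -0.56 (SE 0.25, with an adjusted p of 0.174 by edgeR). Usp18 differed least in this role, at 8.83 ± 0.28 CPM in Runx1_FB_KO and 8.98 ± 1.36 CPM in CTL (SD, n = 3 each), with a log2 fold change of -0.02 whose SE was 0.21. Trim25 was at 64.1, 71.1 and 78.0 CPM in Runx1_FB_KO, against 74.3, 67.4 and 61.8 CPM in CTL. The groups overlapped in part, with Runx1_FB_KO replicate 3 above every CTL library. Herc6 was at 13.6, 6.17 and 16.3 CPM in Runx1_FB_KO, against 12.2, 19.9 and 13.8 CPM in CTL. Runx1_FB_KO replicate 2 was far below the other libraries for Herc6, as it was for Ifit1. The Herc6 log2 fold change was -0.34 (SE 0.38), -0.03 without that library and -0.11 without CTL replicate 2.

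Among the remaining 6 members, Ifi27 and Rtp4 were called lower without Runx1_FB_KO replicate 3 and none was called with it. Ifi27, which encodes a small membrane protein, was at 36.5, 32.7 and 48.5 CPM in Runx1_FB_KO, against 45.1, 52.3 and 54.5 CPM in CTL. Xaf1, an antagonist of the apoptosis inhibitor XIAP, was at 15.9, 11.6 and 18.1 CPM in Runx1_FB_KO, against 13.9, 20.04 and 18.05 CPM in CTL. Ifi44 was at 8.71, 8.43 and 11.5 CPM in Runx1_FB_KO, against 8.89, 12.9 and 9.85 CPM in CTL. The groups overlapped for all 3 of these genes. Rtp4, a regulator of interferon responses named for its part in receptor transport, had a log2 fold change of -0.32 (SE 0.17). Its values were 17.6, 16.2 and 21.95 CPM in Runx1_FB_KO, against 23.4, 24.3 and 22.03 CPM in CTL. They did not overlap, but Runx1_FB_KO replicate 3 lay only just below CTL replicate 3. Parp14, an ADP-ribosyltransferase, and Ifi35 had -0.05 (SE 0.17) and 0.01 (SE 0.16), the second being -0.47 with library size alone.

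The spread among the CTL libraries was itself part of the picture. The SD of log2 CPM over the 3 CTL libraries had a median of 0.23 over the members, beside 0.19 over all genes tested, and ran between 0.04 for Stat2 and 0.44 for Mx1. It exceeded the SD that counting error alone would give in 29 of the 31 members and was over 2 times as large in 20. Counting error gave between 0.04 and 0.16 on that scale and covers counting only. The same counts were not made over all genes tested, so they do not set the members apart from other genes. The CTL spread was widest for Mx1, Cmpk2 (0.37) and Herc6 (0.37), and narrow for the sensors Ddx58 (0.07) and Dhx58 (0.06) and for Irf9 (0.07).

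The CTL libraries did not share an order across members. CTL replicate 2 was the highest for 17 members (54.8%), replicate 1 for 10 and replicate 3 for 4, whereas replicate 1 was the highest for 40.2% and replicate 2 for 37.4% of all genes. In 11 members replicate 2 was the highest and replicate 1 the lowest. They were Ifit1, Ifit3, Oas2, Oasl2, Herc6, Xaf1, Ifi44, Bst2, Ddx58, Irf9 and Stat2. For Stat2, Ddx58 and Irf9 the CTL SD was only 0.77, 1.36 and 1.38 times that of counting error. In 5 members, Mx1, Oas1a, Oasl1, Cmpk2 and Ifi35, the opposite order held. Neither order was counted over all genes tested. Cxcl10, which encodes a chemokine induced by both kinds of interferon, was at 13.2, 7.77 and 4.62 CPM in CTL replicates 1, 2 and 3. Cxcl9, its relative under interferon gamma and likewise picked after its values were seen, was at 6.71, 15.3 and 2.49 CPM in the same libraries. Without CTL replicate 1 the median SD of the members was 0.11 (0.13 over all genes), and without CTL replicate 2 it was 0.13 (0.15 over all genes), so much of the spread lay between those libraries. CTL replicate 1 was the female CTL library. It also had the highest macrophage score and the lowest fibroblast score (-0.25) of the CTL libraries. Other marker lists differed more among CTL replicates 1, 2 and 3, with B and plasma cell scores of -1.997, 0.27 and 1.73 and neutrophil scores of 0.78, -0.17 and -0.61. All 5 markers of conventional dendritic cells were highest in CTL replicate 2 and lowest in CTL replicate 1, the order of the 11 members above, with scores of -0.74, 0.61 and 0.13. All 10 macrophage markers had the reverse order, highest in CTL replicate 1 and lowest in CTL replicate 2, as in the 5 members above. The part of these differences in the spread was not tested.

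**Figure D4:**
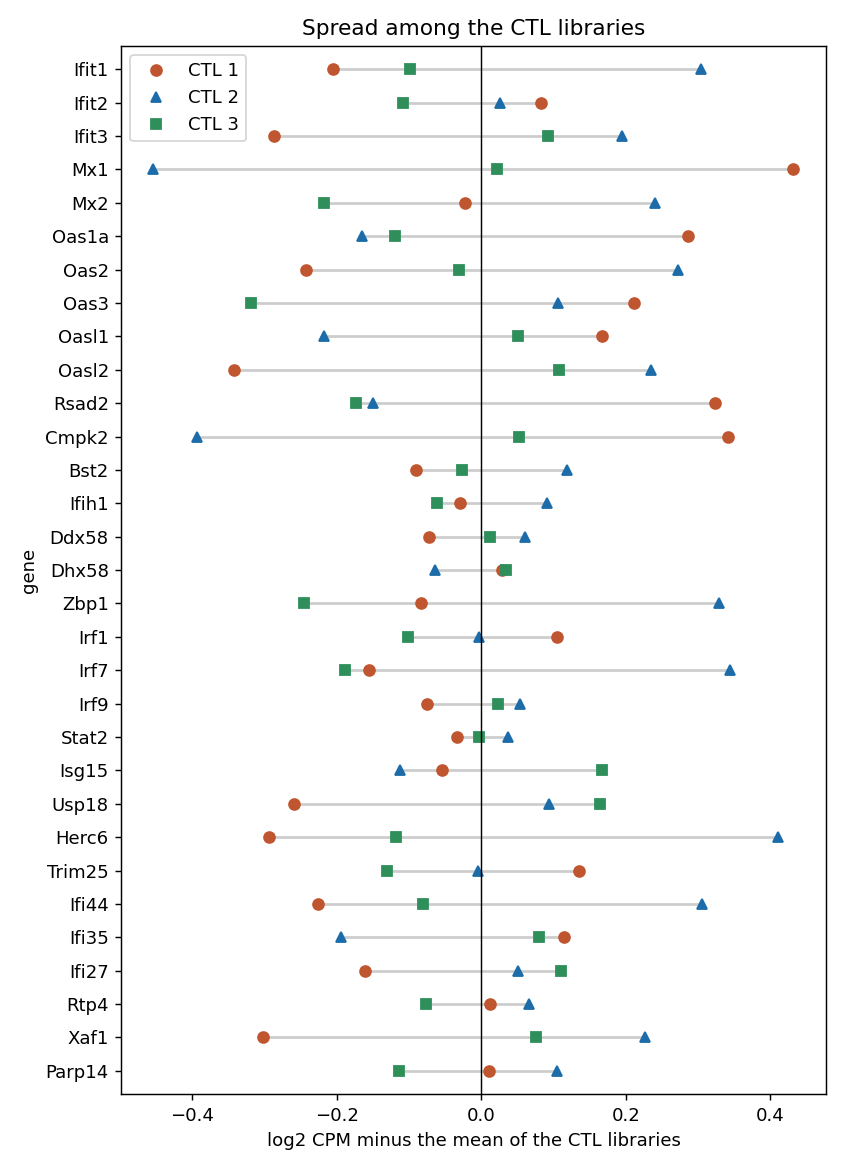
Log2 CPM of each interferon-stimulated gene in the 3 CTL libraries, minus their mean, with circles, triangles and squares for CTL replicates 1, 2 and 3. Grey lines join the highest and lowest library. Mx1, Cmpk2 and Herc6 span the widest ranges, with CTL replicate 1 highest for Mx1 and Cmpk2 and CTL replicate 2 highest for Herc6, and Stat2, Dhx58 and Irf9 span the narrowest.

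Levels between genes are compared per transcript length. In CTL, Bst2 at 215 ± 15.3 TPM and Ifi27 at 161 ± 17.5 TPM stood above all other members without overlap. Isg15 at 55.1 ± 6.91 TPM, Irf7 at 53.4 ± 11.3 TPM and Oasl2 at 50.97 ± 12.3 TPM followed, each overlapping the next (SD, n = 3 each). At the low end were Mx2 at 5.39 ± 0.68 TPM, Oasl1 at 5.17 ± 0.74 TPM and Oas3 at 3.92 ± 1.05 TPM. Of the 30 neighbouring pairs in this order, 24 overlapped over the CTL libraries. In Runx1_FB_KO the highest mean was that of Ifi27, at 92.5 ± 58.7 TPM, with Bst2 next at 88.1 ± 60.4 TPM, a difference far inside their spread.

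Transcripts of the interferons themselves were near the limit of detection. Of 21 ligand genes examined, 17 had 0 reads in every library, Ifnb1 among them. With 0 reads, a level of up to 0.150 to 0.181 CPM (3 reads, before TMM scaling) is allowed in a library. Ifng had 1 read, in CTL replicate 3, and 0 in every other library. Ifnz was given 4, 3 and 0 reads in Runx1_FB_KO, against 0, 22 and 7 reads in CTL. The other ligand genes with any read were Ifna7 and Ifnab, with at most 1 read in a library.

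The receptor and kinase genes had values on both sides of CTL. Of 10 genes, 0 passed the threshold, and at an unadjusted p under 0.05 there were 2 lower and 2 higher (20% each), beside 13.1% lower and 19.3% higher over all genes tested. Ifngr1, the ligand-binding chain for interferon gamma, was at 86.4, 89.4 and 113 CPM in Runx1_FB_KO, against 153, 157 and 149 CPM in CTL (log2 fold change -0.67, SE 0.17, adjusted p = 0.0735 by edgeR). Ifngr2, the second chain, was at 180, 160 and 107 CPM in Runx1_FB_KO, against 86.5, 85.1 and 76.7 CPM in CTL (log2 fold change 0.85, SE 0.22, adjusted p = 0.0753 by edgeR). The chains of 1 receptor thus had values on opposite sides of CTL, without overlap between groups for either.

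Ifnar2, Il10rb, Ifnar1 and Ifngr2 lie together on chromosome 16, between 1.04 and 1.20 Mb from Runx1. Il10rb, a chain of the interferon lambda and interleukin 10 receptors, had a log2 fold change of 0.81 (SE 0.27), beside -0.39 (SE 0.16) for Ifnar2 and -0.32 (SE 0.24) for Ifnar1. Without Runx1_FB_KO replicate 3, Ifngr2 and Il10rb were called higher at 1.08 and 1.10 (edgeR adjusted p = 0.000504 and 0.000655), and Ifnar2 and Ifnar1 were called lower at -0.46 and -0.57 (edgeR adjusted p = 0.0281 and 0.0162). Of the 10 receptor and kinase genes, 3 were called lower and 2 higher in that comparison. Over all genes tested in it, 22.5% were called lower and 25.1% higher. The part of position near Runx1 in these values was not tested.

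Genes that sense nucleic acid or lead to interferon production mostly had values below CTL. Of 17 genes, 15 had negative log2 fold changes with a median of -0.51, 4 were lower and 1 higher at an unadjusted p under 0.05, and all Runx1_FB_KO values lay below all CTL values for 10 (58.8%). Over all genes tested, 54% were negative, 13.1% were lower and 19.3% higher at that limit, and 18.8% had all Runx1_FB_KO values below all CTL values. Tlr7, the endosomal receptor for single-stranded RNA, was at 16.4, 15.7 and 27.5 CPM in Runx1_FB_KO, against 45.2, 40.9 and 45.7 CPM in CTL (log2 fold change -1.14, SE 0.24, adjusted p = 0.0682 by edgeR). Irf8, a factor of macrophages and dendritic cells, had -1.24 (SE 0.34). Mavs, the mitochondrial adaptor of RIG-I, lay the other way at 76.8, 80.5 and 38.6 CPM in Runx1_FB_KO, against 25.9, 27.6 and 28.8 CPM in CTL (log2 fold change 1.25, SE 0.28, adjusted p = 0.0682 by edgeR). The libraries with most Mavs were also those with the highest cardiomyocyte scores, and the part of those cells was not tested.

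Negative regulators were mixed, with 9 of 14 negative, beside 54% of all genes tested, and a median of -0.20. At an unadjusted p under 0.05, 4 were lower and 1 was higher, beside 13.1% lower and 19.3% higher over all genes tested. The phosphatase genes Ptpn6 and Ptpn1 had -0.91 (SE 0.27) and -0.83 (SE 0.28), and Ptpn11, which encodes SHP2, had 0.93 (SE 0.27). None passed the threshold over all genes tested, for which edgeR gave adjusted p of 0.088 to 0.108.

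A further 40 interferon-induced genes outside the members were examined, of which 34 had negative log2 fold changes, beside 54% of all genes tested. The median was -0.38, and 8 were lower and 0 higher at an unadjusted p under 0.05, beside 13.1% lower and 19.3% higher over all genes tested. Tap1, the peptide transporter of antigen presentation, was at 24.9, 20.4 and 32.8 CPM in Runx1_FB_KO, against 58.4, 52.1 and 45.9 CPM in CTL (log2 fold change -0.9997, SE 0.21, adjusted p = 0.0682 by edgeR). Ifitm2, which blocks viral entry, and Apol9b had -0.68 (SE 0.21) and -1.32 (SE 0.47). Cxcl10 was at 2.36, 1.25 and 4.90 CPM in Runx1_FB_KO, against 13.2, 7.77 and 4.62 CPM in CTL (log2 fold change -1.57, SE 0.58, adjusted p = 0.126 by edgeR). Runx1_FB_KO replicate 3 overlapped CTL replicate 3 for Cxcl10.

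Targets of interferon gamma had values on both sides of CTL. Of 29 tested, 20 had negative log2 fold changes, the median was -0.30, and 7 were lower and 2 higher at an unadjusted p under 0.05. The shares over all genes tested were 54% negative, 13.1% lower and 19.3% higher. Psmb9, an immunoproteasome subunit, and H2-D1, a class I heavy chain, had -0.65 (SE 0.18) and -0.78 (SE 0.24), and Ciita, the master factor of class II genes, had -1.12 (SE 0.35). The 2 genes higher at that limit, named after their values were seen, were the guanylate-binding protein gene Gbp6, at 63.05, 35.9 and 18.1 CPM in Runx1_FB_KO and 11.7, 26.5 and 11.04 CPM in CTL, and the inducible nitric oxide synthase gene Nos2, at 12.5, 8.90 and 7.71 CPM in Runx1_FB_KO and 6.18, 5.27 and 6.32 CPM in CTL. Nos2 did not overlap between groups and Gbp6 did. The list score was 0.08, -0.30 and -0.21 in Runx1_FB_KO, against -0.04, 0.31 and -0.27 in CTL, so the groups overlapped and CTL replicate 2 was highest.

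The marker lists of macrophages, fibroblasts and cardiomyocytes had scores farther from the CTL mean than the interferon-stimulated genes in every Runx1_FB_KO library. However, the macrophage score of Runx1_FB_KO replicate 3 (-0.24) lay within the CTL range of -0.25 to 0.33. Likewise, the fibroblast score of that library (-0.16) lay within the CTL range of -0.25 to 0.25. Its score for the interferon-stimulated genes (-0.07) lay just below the lowest CTL score (-0.04). All 10 macrophage markers had negative log2 fold changes between -1.14 and -0.40 with a median of -0.98, and all 8 cardiomyocyte markers had positive ones with a median of 2.95. The summed CPM of the 31 members was 711, 633 and 842 in Runx1_FB_KO, against 836, 914 and 838 in CTL. That of the macrophage markers was 1398, 1336 and 3355 in Runx1_FB_KO, against 5238, 3311 and 3584 in CTL. The ratio of the first sum to the second was 0.508, 0.474 and 0.251 in Runx1_FB_KO, against 0.160, 0.276 and 0.234 in CTL. This ratio was highest where its denominator was lowest, in Runx1_FB_KO replicates 1 and 2. The ratio to the fibroblast sum was 0.134, 0.120 and 0.043 in Runx1_FB_KO, against 0.037, 0.039 and 0.038 in CTL. It was likewise highest in Runx1_FB_KO replicates 1 and 2, where the fibroblast sum was lowest. The ratio to the endothelial sum lay the other way in replicates 1 and 2, at 0.716, 0.681 and 0.891 in Runx1_FB_KO, against 0.889, 1.006 and 1.008 in CTL. For the endothelial ratio, Runx1_FB_KO replicate 3 overlapped CTL replicate 1. The 6 endothelial markers summed to 993, 930.4 and 945 CPM in Runx1_FB_KO, against 940.0, 909 and 831 CPM in CTL, and their median log2 fold change was -0.07 although their mean score in Runx1_FB_KO was 0.13. The 6 fibroblast markers summed to 5295, 5294 and 19668 CPM in Runx1_FB_KO, against 22552, 23177 and 22229 CPM in CTL. T and NK cell markers summed to 1.9, 3.4 and 4.7 CPM in Runx1_FB_KO, against 10.2, 13.3 and 8.7 CPM in CTL, and those of plasmacytoid dendritic cells, a main source of interferon alpha, to at most 4.8 CPM in any library. No marker in these lists was at 0 reads in every library, and the part of these cell types in the members' values was not tested.

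**Figure D5:**
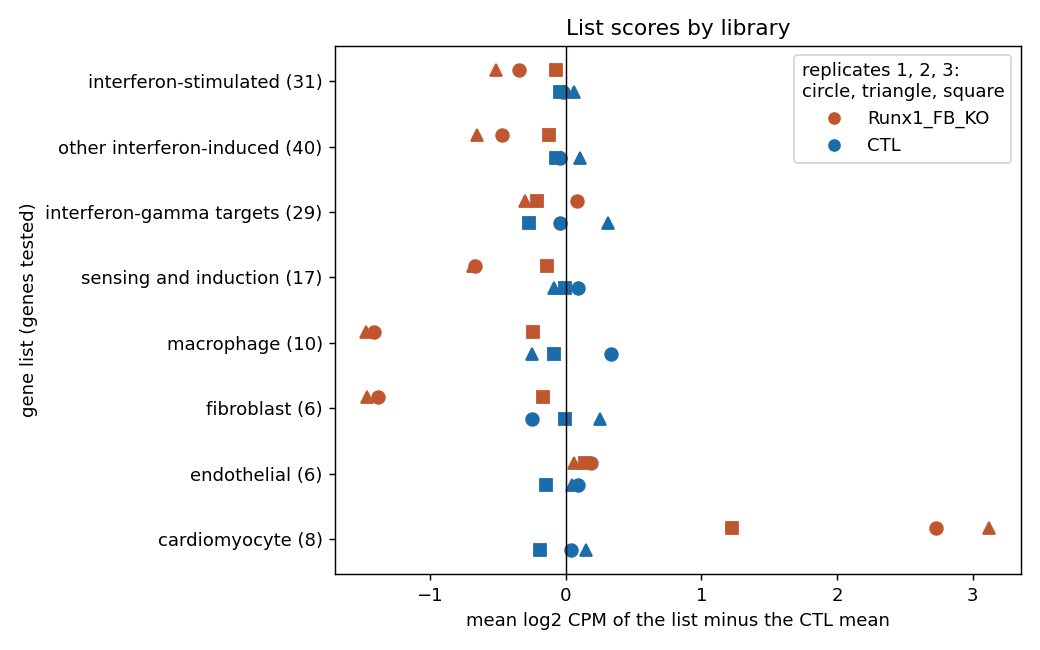
Mean log2 CPM of each gene list minus its CTL mean, by library, with Runx1_FB_KO above CTL in each row and circles, triangles and squares for replicates 1, 2 and 3. In Runx1_FB_KO the interferon-stimulated genes lie between -0.51 and -0.07, and the cardiomyocyte list between 1.23 and 3.12. The macrophage list lies between -1.47 and -0.24 in Runx1_FB_KO, with replicate 3 within the CTL range (-0.25 to 0.33).

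Members with and without the ISRE core were compared as a description. The 10 with a match had a median log2 fold change of -0.38 and a range between -0.73 and 0.33, and the 12 without had a median of -0.17 and a range between -0.58 and 0.19. The ranges overlapped throughout, with Rsad2 and Oas3 both carrying the core at opposite ends.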

How the data were processed

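Per the file headers and the submitters' processing notes, the authors deposited Salmon 1.5.2 tables of 116546 transcripts per sample (GRCm38, with DESeq2 1.44.0 also named). No label or header names the transcript annotation. The deposited estimated counts were summed per gene with GENCODE M21 (115977 transcripts matched, 569 did not) and rounded to whole numbers. The deposited TPM were summed per gene and used only for levels between genes. Genes were filtered with filterByExpr, scaled by TMM and tested by edgeR 4.0.16 with genotype as the sole term (Benjamini-Hochberg over 14237 genes) and a threshold of 0.05. Log2 CPM used a prior count of 2. The SE was obtained from the log2 fold change and the F statistic. Depth was 16598561 to 19987279 estimated reads. DESeq2 1.42.0 and limma 3.58.1 (voom) were alternatives. The test was checked on simulated data. The members, lists and rule for named genes (in each role the 2 highest in TPM, the smallest p and the widest CTL spread, and 3 genes per pathway list) were chosen with earlier results of these data known. A few further genes were named after their values were seen.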

Additional observations from a re-analysis of the deposited data

How the results depend on the processing

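With RLE size factors, limma-voom, sex as a covariate, the replicate block, or mitochondrially encoded genes left out, 0 genes and 0 members were called, as with all libraries and TMM. The labels number the replicates alike in both groups, but same-numbered libraries deviated together with correlations of only -0.05, 0.11 and 0.08, and not every library correlated best with its own number, so the numbers were not taken as pairs. With the replicate block the median log2 fold change of the members was -0.33. DESeq2 called 832 genes lower, 2186 higher and 1 member lower, and without a filter on low counts edgeR called 39 genes lower and 850 higher. Leaving out each library in turn gave 0 to 3285 genes lower, 0 to 3662 higher and 0 to 12 members lower, with every call made without Runx1_FB_KO replicate 3. The members' median was -0.74 with library size alone, -0.21 with sex as a covariate, -0.15 without CTL replicate 2 and -0.21 without Runx1_FB_KO replicate 2, and -0.36 to -0.15 over the libraries left out. The median CTL spread ran from 0.11 to 0.22 over the CTL libraries left out. With library size alone Oas2 (-0.26), Rsad2 (-0.15), Cmpk2 (-0.28), Trim25 (-0.38) and Ifi35 (-0.47) turned negative, as Trim25 did with sex as a covariate (-0.0031). Usp18 turned positive with RLE size factors (0.011), DESeq2 (0.012) and sex as a covariate (0.052). Over the libraries left out, Ifih1 ran from -0.31 to 0.00036, Usp18 from -0.14 to 0.061, Ifi44 from -0.26 to 0.028, Ifi35 from -0.086 to 0.11 and Parp14 from -0.11 to 0.081. The cause was not tested. With 33 to 1671 reads per member and library, counting error was smaller than the spread between CTL libraries for 29 of the 31 members, a count not made over all genes.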
